A study of Saccharomyces cerevisiae with 2 samples.

Results

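The 36 genes described here encode the subunits of the yeast proteasome, an assembly factor (UMP1), an alternative activator (BLM10) and the transcription factor of the proteasome genes (RPN4). They were taken by name from a list of proteasome genes, and all 36 were found among the 6716 genes measured. RNA-Seq was performed on 2 libraries of Saccharomyces cerevisiae, 1 of the Chinese rice wine strain YHJ7 and 1 of the laboratory strain BY4741, to compare transcription of the strains in the same rich medium. YHJ7 is a wild-type haploid obtained by sporulation of an isolate from rice wine fermentation, and the labels also call it DY1 and YHJ8. BY4741 is MATa, isogenic with the reference strain S288c, and the labels give it mutations in the HIS, LEU2, LYS2 and URA3 genes. Both were grown in YPD (yeast extract, peptone and glucose) to early stationary phase, and poly(A) RNA was sequenced on an Illumina instrument. Each library pools a pair of biological replicates. The spread between cultures was therefore not measured, and no difference below could be checked in replicates. Strain and state of growth at harvest cannot be told apart.

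The libraries held 8168409 fragments of YHJ7 and 10219000 fragments of BY4741 on named genes. This number for YHJ7 rests on the worth taken for 1 fragment, and a smaller step that explains more of the values would give 16336811. That is more than the total of RNA-Seq reads in the paper's summary of its sequencing. The tables attached to each sample carry column headings that name the other strain, and the headings were followed. The opposite choice would turn every direction below. LEU2, URA3 and MET17 were at 64.2, 154.6 and 25.7 FPKM in the YHJ7 library, and no fragment (0) of them was counted in the library headed BY4741. For LEU2 and URA3 this goes with the mutations that the labels give BY4741. HIS3 was present in both, at 188 FPKM in YHJ7 and 91.6 FPKM in BY4741. LYS2 was at 25.3 FPKM in YHJ7 and 26.1 FPKM in BY4741, which goes against the label for that gene. FPKM is the number of fragments per kilobase of transcript, scaled for the depth of the library. Here that scale was set between the libraries and not by each library's own total. The deposited counts behind it summed to 1.02e+07 in YHJ7 and 8.14e+06 in BY4741. FPKM is thus a relative level and not a share of its library, and the amount of RNA per cell was not measured.

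The proteasome degrades proteins that carry ubiquitin chains and so clears damaged, misfolded and short-lived regulatory proteins. Its core particle is a barrel of alpha rings and beta rings, with the proteolytic sites on beta subunits inside. The regulatory particle caps the barrel, and its base holds a ring of ATPases that unfold substrates, while its lid removes ubiquitin. In yeast the genes of these subunits are controlled together by Rpn4, which binds a short promoter sequence called the proteasome-associated control element, and Rpn4 is itself a substrate of the proteasome with a very short life.

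The Rpn4 sequence is shown first because it is what the promoters of these genes have in common. GGTGGCAAA was searched on both strands in the 300 bases before each start codon of the R64 (sacCer3) reference, read from RefSeq. It was found in 73 of 6002 promoters (1.22%), and 27 of the 36 proteasome genes were among them. Each of the 27 held it once, 19 on the strand of the gene and 8 on the other strand. The first base of the match lay between positions -183 and -84, with a median of -120, where -1 is the base before the start codon. The windows below are written on the strand of the gene, with the 9 letters of the match in capitals and 15 bases on each side. They were picked for the genes of the 27 with the lowest differences between the libraries (PRE1, PRE3 and PRE2), for the subunit that was higher in YHJ7 (RPN5) and for the one nearest to no difference (RPT4), whose match reads on the other strand.
PRE1, chrV:177678-177716, plus strand: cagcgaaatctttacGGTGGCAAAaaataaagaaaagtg
PRE3, chrX:435030-435068, plus strand: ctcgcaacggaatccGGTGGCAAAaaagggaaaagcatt
PRE2, chrXVI:732179-732217, plus strand: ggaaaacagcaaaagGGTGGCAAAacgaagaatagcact
RPN5, chrIV:190771-190809, plus strand: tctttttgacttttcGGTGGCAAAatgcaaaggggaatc
RPT4, chrXV:813797-813835, minus strand: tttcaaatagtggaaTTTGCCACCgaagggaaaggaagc

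PRE5, PUP1 and RPN8 held another first letter, AGTGGCAAA, so their match covers 8 of the 9 letters. The 8 letters GTGGCAAA were in 2.65% of all promoters and in 30 of the 36 proteasome genes. The windows of these genes are shown because RPN8 had the lowest difference of all 36, with the 9 aligned letters in capitals.
PRE5, chrXIII:901547-901585, plus strand: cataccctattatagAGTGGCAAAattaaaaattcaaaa
PUP1, chrXV:631886-631924, minus strand: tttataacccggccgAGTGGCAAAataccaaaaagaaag
RPN8, chrXV:817080-817118, minus strand: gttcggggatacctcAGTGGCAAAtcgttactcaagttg

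RPN10, RPN13, SEM1, UMP1, BLM10 and RPN4 had neither form in the 300 bases. All sequences are those of the S288c reference. The sequence of YHJ7 was not used here, and a match is a description of letters, not of binding.

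The proteasome genes were nearly all lower in the YHJ7 library, each by a small amount. The log2(FPKM + 1) difference, YHJ7 minus BY4741, had a median of -0.29 over the 36 genes, against 0 over all genes. Of the 36, 34 were lower and 2 higher in YHJ7, while 49.2% of all genes were lower and 49.6% higher. The transcription factor gene RPN4 stood apart, at 1.05, and RPN5 was the other gene above 0. At a fold of at least 2, 1 of the 36 was higher in YHJ7 (RPN4), where 12.4% of all genes were, and 0 were lower, where 9.84% of all genes were. At 1.5-fold, 4 were lower (RPN8, PRE1, PRE3 and PRE2), where 19.1% of all genes were, and RPN4 was again the 1 higher gene, where 22.4% were. At 4-fold, 0 of the 36 were higher or lower, where 2.74% of all genes were higher and 3.75% lower. These values depend on the scaling. When the libraries were scaled to an equal total, which puts the median of all genes at -0.30, the median of the 36 was -0.62, and at 2-fold 0 were higher and 3 lower (RPN8, PRE1 and PRE3), where 7.55% of all genes were higher and 15.7% lower. The other 35 genes ranged from -0.83 (RPN8) to 0.09 (RPN5), with a median of -0.30 and a standard deviation of 0.23. Their middle values, between the quartiles, spanned -0.45 to -0.13, against -0.44 to 0.52 for the 6564 genes whose mean FPKM was at least 1. Most of these genes are well expressed, and the 1903 genes whose mean FPKM was at least 100 had a median of 0.21. Of these 1903 genes, 61.8% were higher and 38.2% lower in YHJ7, and at least 2-fold 19.6% were higher and 5.94% lower.

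**Figure D1:**
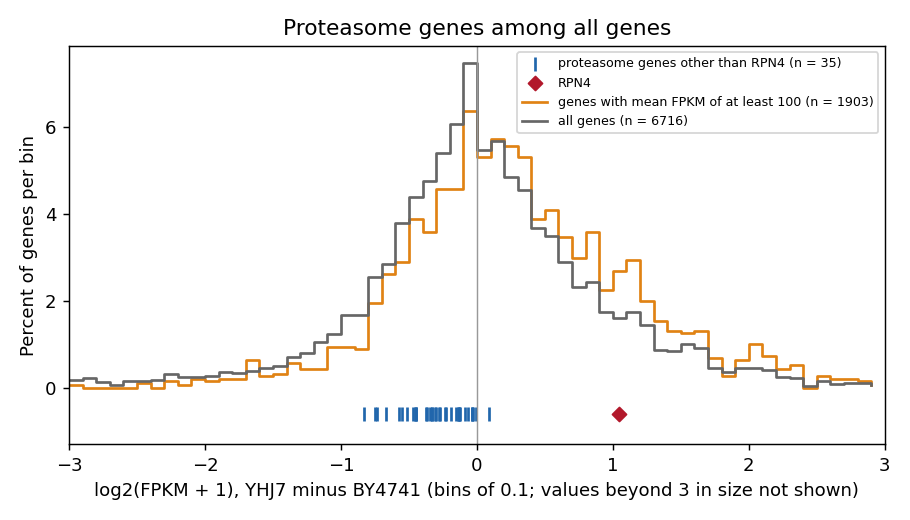
Share of genes (percent per bin of 0.1) against the log2(FPKM + 1) difference, YHJ7 minus BY4741. Ticks mark the 35 proteasome genes other than RPN4, which lie between -0.83 and 0.09, the diamond marks RPN4 at 1.05, and the lines show all 6716 genes and the 1903 genes whose mean FPKM was at least 100.

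Together the 36 genes took 0.679% of the YHJ7 counts and 1.02% of the BY4741 counts (95% Wilson intervals of 0.673 to 0.684% and 1.01 to 1.02%, which cover counting error only). These are shares of each library's own total, which the FPKM values are not. The summed FPKM of the 33 subunits was 8337 in YHJ7 and 10456 in BY4741, a ratio of 0.797. The ratio was 0.778 for the 14 core particle subunits and 0.817 for the 19 subunits of the regulatory particle. Each gene was counted from 440 to 3256 fragments in YHJ7 and from 835 to 5430 in BY4741. The counting standard error of a log2 ratio was therefore between 0.032 and 0.085. By counting error alone, the 95% interval of the log2 FPKM ratio lay below 0 for 29 genes and above 0 for RPN4 and RPN5. It held 0 for 5 genes, PRE8, PRE6, RPT4, RPN9 and UMP1. The share of all genes with such intervals was not counted, so it cannot be said whether these numbers are particular to the proteasome genes.

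**Figure D2:**
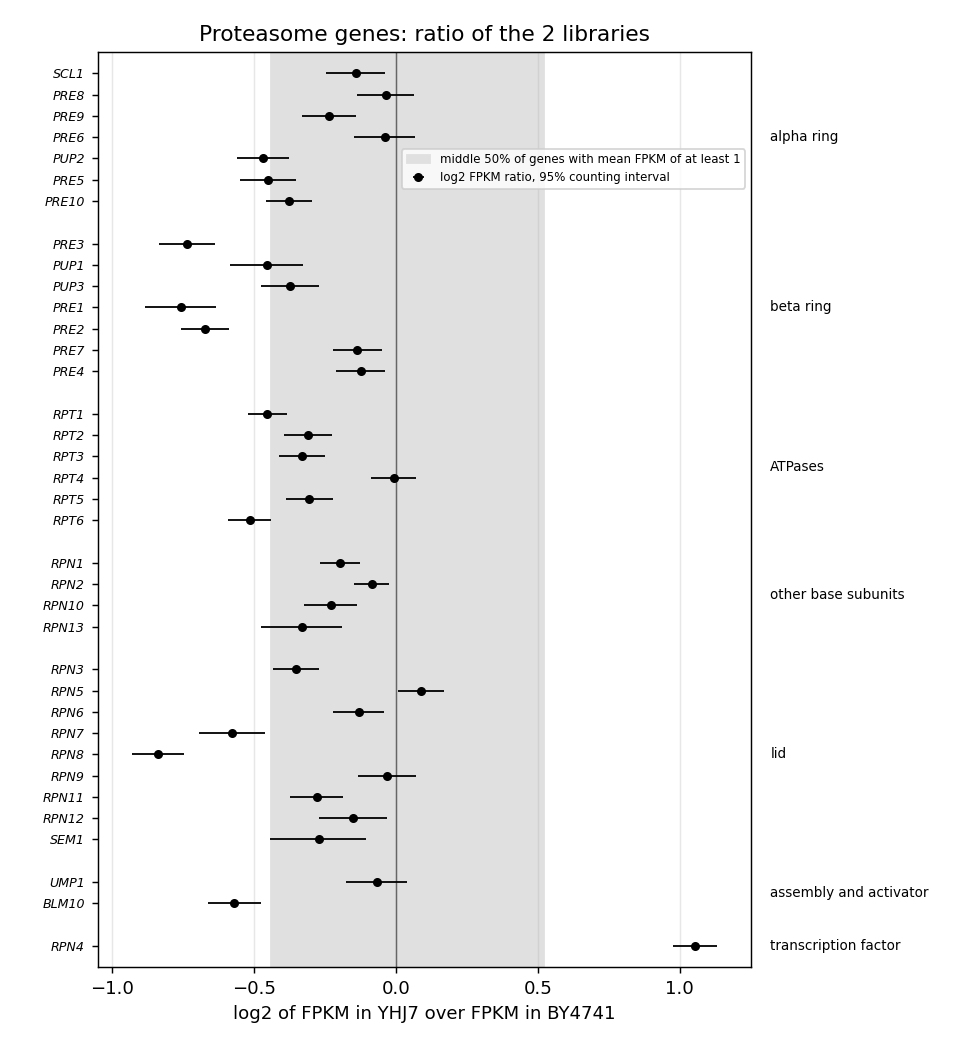
Log2 of the FPKM ratio, YHJ7 over BY4741, of the 36 proteasome genes grouped by subcomplex, with 95% intervals of counting error. The band holds the middle 50% of genes whose mean FPKM was at least 1, by their log2(FPKM + 1) difference and not the plain ratio. The intervals of 29 genes lie below 0 (the share over all genes was not counted), and RPN4 is at 1.05.

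The alpha ring forms the gate through which substrates enter the core particle. All 7 of its genes were lower in the YHJ7 library, with a median difference of -0.23. PUP2 had 296 FPKM in YHJ7 and 410 FPKM in BY4741, a difference of -0.47, the lowest of the ring. PRE5 had 298 FPKM in YHJ7 and 406 FPKM in BY4741 (-0.45), and PRE10 had 332 FPKM in YHJ7 and 430 FPKM in BY4741 (-0.37). PRE9, the alpha subunit that yeast can live without, had 291 FPKM in YHJ7 and 342 FPKM in BY4741 (-0.23). The remaining genes of the ring were nearer to 0. SCL1 had 259 FPKM in YHJ7 and 286 FPKM in BY4741 (-0.14). PRE8, at 286 FPKM in YHJ7 and 293 FPKM in BY4741, and PRE6, at 247 FPKM in YHJ7 and 253 FPKM in BY4741, had counting intervals that held 0. The levels of the 7 genes were closer together in YHJ7, where the highest was 1.34 times the lowest, than in BY4741, where it was 1.70 times.

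The beta ring carries the proteolytic sites, and its genes had the lowest median of the subcomplexes, -0.45, with all 7 lower in YHJ7. PRE3, PUP1 and PRE2 encode the catalytic subunits, with caspase-like, trypsin-like and chymotrypsin-like activity in that order. PRE3 (YJL001W, chromosome X from 435163 to 435926, 2 exons) had 312 FPKM in YHJ7 and 519 FPKM in BY4741. Its log2 ratio was -0.73 (counting standard error 0.050), and the YHJ7 level was 0.601 of that in BY4741. PRE2 (YPR103W, chromosome XVI from 732349 to 733212) had 286 FPKM in YHJ7 and 456 FPKM in BY4741, a log2 ratio of -0.67 (counting standard error 0.043.) PUP1 had 148 FPKM in YHJ7 and 203 FPKM in BY4741, a difference of -0.45, and was the lowest gene of the core particle in both libraries.

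The other beta genes encode structural subunits without a proteolytic site, and they fell into a wide range. PRE1 (YER012W, chromosome V from 177835 to 178431) had 221 FPKM in YHJ7 and 374 FPKM in BY4741, a log2 ratio of -0.76 (counting standard error 0.063), the lowest of the core particle. PUP3 had 336 FPKM in YHJ7 and 435 FPKM in BY4741 (-0.37). PRE7 had 410 FPKM in YHJ7 and 450 FPKM in BY4741 (-0.13), and PRE4 had 356 FPKM in YHJ7 and 388 FPKM in BY4741 (-0.12). The 3 catalytic genes had a median of -0.67 and the 4 other genes one of -0.25, but PRE1 was below all of the catalytic genes, so the groups overlapped. PRE1, PRE3 and PRE2 were the 3 genes of the core particle at least 1.5-fold lower in YHJ7, where 19.1% of all genes were.

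**Figure D3:**
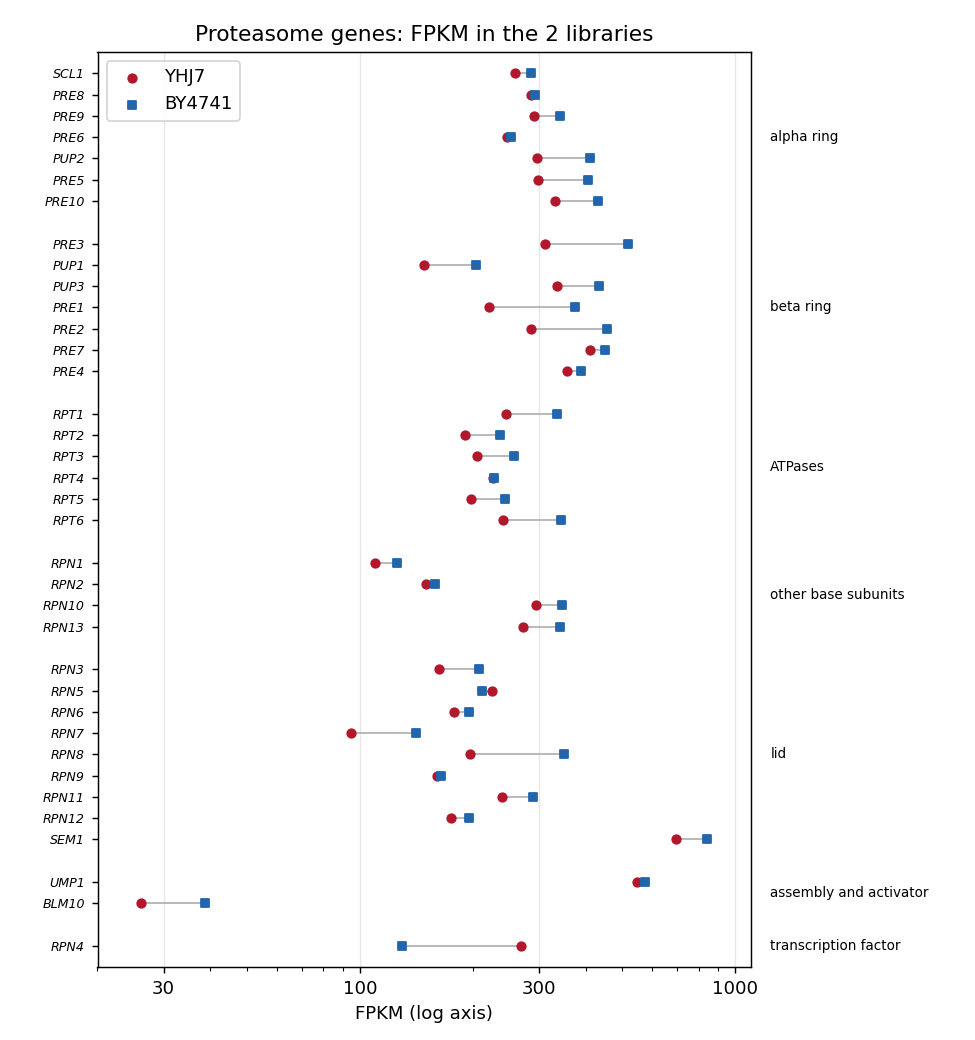
FPKM (log axis) of the 36 proteasome genes in the YHJ7 library (circles) and the BY4741 library (squares), grouped by subcomplex. The circle lies left of the square for 34 genes, and right of it for RPN5 and RPN4. BLM10 is the lowest gene in both libraries.

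The ATPases of the base, RPT1 to RPT6, form the ring that unfolds substrates and threads them into the core. All 6 were lower in YHJ7, with a median of -0.32. RPT6 had 241 FPKM in YHJ7 and 344 FPKM in BY4741 (-0.51), and RPT1 had 245 FPKM in YHJ7 and 336 FPKM in BY4741 (-0.45). RPT1 overlaps the locus YKL145W-A, so some of its reads could be from that locus. RPT2, RPT3 and RPT5 lay close together, from -0.33 to -0.30. RPT3 had 205 FPKM in YHJ7 and 258 FPKM in BY4741, RPT2 had 191 FPKM in YHJ7 and 237 FPKM in BY4741, and RPT5 had 197 FPKM in YHJ7 and 244 FPKM in BY4741. RPT4 had 226 FPKM in YHJ7 and 227 FPKM in BY4741 (-0.01), the smallest difference of the 36 genes. The highest ATPase gene was 1.29 times the lowest in YHJ7 and 1.51 times in BY4741. The beta ring and the lid had the wider range in YHJ7. For the beta ring the highest gene was 2.76 times the lowest in YHJ7 and 2.55 times in BY4741. For the lid it was 7.37 times in YHJ7 and 5.97 times in BY4741, with the short gene SEM1 as the highest. In deposited counts per coding kilobase the lid spanned only 2.48 times in YHJ7 and 2.37 times in BY4741.

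The 4 other genes of the base were lower in YHJ7 by a median of -0.21. RPN13 and RPN10 encode receptors for ubiquitin chains. RPN13 had 271 FPKM in YHJ7 and 341 FPKM in BY4741 (-0.33), and RPN10 had 295 FPKM in YHJ7 and 346 FPKM in BY4741 (-0.23). RPN1 and RPN2 encode the large scaffold subunits, on which ubiquitin receptors and other factors dock. RPN1 had 110 FPKM in YHJ7 and 126 FPKM in BY4741 (-0.19), and RPN2 had 150 FPKM in YHJ7 and 159 FPKM in BY4741 (-0.08). They were below RPN10 and RPN13 in both libraries.

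The lid held both the lowest gene of the 36 and the only subunit gene above 0, with a median of -0.27 over 9 genes. RPN8 encodes the partner of the deubiquitinating enzyme Rpn11. RPN8 (YOR261C, chromosome XV from 815915 to 816931) had 196 FPKM in YHJ7 and 351 FPKM in BY4741. Its log2 ratio was -0.84 (counting standard error 0.046), and the BY4741 level was 1.79 times that in YHJ7. RPN11, which removes the ubiquitin chain from the substrate, had 239 FPKM in YHJ7 and 290 FPKM in BY4741 (-0.28). The counting intervals of this enzyme pair did not overlap (-0.93 to -0.75 for RPN8 and -0.37 to -0.19 for RPN11).

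The other lid genes encode scaffold subunits and SEM1, a small subunit that tethers 2 of them. RPN5 (YDL147W, chromosome IV from 190924 to 192261) had 224 FPKM in YHJ7 and 211 FPKM in BY4741, a difference of 0.09, with a counting interval of the log2 ratio from 0.0085 to 0.17. When the libraries were scaled to an equal total, RPN5 turned to -0.24. RPN7 had 94.5 FPKM in YHJ7 and 141 FPKM in BY4741 (-0.57), and RPN3 had 163 FPKM in YHJ7 and 207 FPKM in BY4741 (-0.35). RPN12 had 175 FPKM in YHJ7 and 195 FPKM in BY4741 (-0.15). RPN6 had 178 FPKM in YHJ7 and 195 FPKM in BY4741 (-0.13), and RPN9 had 161 FPKM in YHJ7 and 164 FPKM in BY4741 (-0.03). SEM1 had 696 FPKM in YHJ7 and 841 FPKM in BY4741 (-0.27). Its first place among the 36 in FPKM rests on the correction for effective length that raises short genes, since with 270 coding bases it ranked 16 in counts per coding kilobase in both libraries.

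UMP1 and BLM10 are not stable subunits. UMP1, a chaperone that the newly made core particle degrades, was the second gene in FPKM after SEM1, with 548 FPKM in YHJ7 and 574 FPKM in BY4741 (-0.07). Its counting interval held 0. BLM10, which can cap the core particle in place of the regulatory particle, was the lowest of the 36 in both libraries. It had 26.1 FPKM in YHJ7 and 38.7 FPKM in BY4741 (-0.55). In the authors' table of comparisons UMP1 and BLM10 share a locus with other genes and both turn to the other side of 0, at 0.0079 and 0.11.

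The order of the levels was much alike in the libraries. Across the 33 subunit genes, log2 FPKM in YHJ7 and in BY4741 had a Pearson's r of 0.922 and a Spearman's rho of 0.889. Genes are not independent replicates, so these values across genes are a description, and both libraries were counted on the same gene models. In counts per coding kilobase, PRE7 ranked 2 of the 36 in YHJ7 and 4 in BY4741, while PRE3 ranked 11 in YHJ7 and 1 in BY4741 and PRE1 ranked 28 in YHJ7 and 15 in BY4741. RPN4 ranked 5 in YHJ7 and 35 in BY4741, the widest shift of the 36.

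RPN4 (YDL020C, chromosome IV from 415113 to 416708) encodes the activator of the proteasome genes, and with RPN5 it was 1 of the 2 genes above 0. It had 268 FPKM in YHJ7 and 129 FPKM in BY4741, from 3087 and 2340 fragments. This is a log2 ratio of 1.05 (counting standard error 0.040, 95% counting interval 0.97 to 1.13) and a fold of 2.07. RPN4 lies just past the 2-fold line, so its count as a 2-fold gene was lost with other settings, at 1.00 with a pseudocount of 10, 1.00 in the authors' table of comparisons and 0.72 when the libraries were scaled to an equal total. In each of these it stayed above 0. Scaling to an equal total lowers every log2 ratio by 0.33 and takes the median of all genes to -0.30. All 35 other genes were then lower, by a median of -0.63, which is -0.33 relative to the median of all genes. The share of all genes that were lower at this scale was not counted.

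Upstream of RPN4 lies a stretch with the recognition sequences of its own known activators, the oxidative stress factor Yap1, the drug resistance factors Pdr1 and Pdr3, and the heat shock factor Hsf1. It is printed because RPN4 was the only gene of the 36 with a 2-fold difference. The search covered the 600 bases before the start codon on both strands, for TTACTAA (Yap1), TCCGTGGA (Pdr1 and Pdr3) and the heat shock element of Hsf1, whose units NGAAN and NTTCN alternate. Matches are in capitals in the 120 bases from position -450 to -331, written on the strand of the gene.
RPN4, chrIV:417039-417158, minus strand: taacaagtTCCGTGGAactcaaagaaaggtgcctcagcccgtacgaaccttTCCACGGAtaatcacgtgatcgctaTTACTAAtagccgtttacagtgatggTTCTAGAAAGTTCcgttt

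TCCGTGGA begins at position -442 and, on the other strand (TCCACGGA), at -399. TTACTAA begins at -374 and the heat shock element at -348, and a further heat shock element begins at -21, outside the printed stretch. Over all promoters, TTACTAA was in 13.7%, TCCGTGGA in 1.30% and the heat shock element in 1.70%. RPN4 was the only 1 of the 36 genes with TCCGTGGA or the heat shock element, and 7 of the 36 held TTACTAA. The palindrome TCCGCGGA, another form of the Pdr1 and Pdr3 sequence, was in 0.75% of promoters and in none of the 36.

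In deposited FPKM, the genes of these activators and of the factors that mark Rpn4 for degradation differed less than RPN4 did. PDR1 had 29.7 FPKM in YHJ7 and 26.0 FPKM in BY4741 (0.18), and YAP1 had 140 FPKM in YHJ7 and 123 FPKM in BY4741 (0.18). HSF1 had 32.2 FPKM in YHJ7 and 51.0 FPKM in BY4741 (-0.65), and PDR3 had 9.68 FPKM in YHJ7 and 15.3 FPKM in BY4741 (-0.61). Ubr2, Mub1 and Rad6 work together to attach ubiquitin to Rpn4. UBR2 had 6.02 FPKM in YHJ7 and 7.36 FPKM in BY4741 (-0.25), MUB1 had 19.4 FPKM in YHJ7 and 26.1 FPKM in BY4741 (-0.41), and RAD6 had 93.2 FPKM in YHJ7 and 85.0 FPKM in BY4741 (0.13). Of these 7 genes, 3 were higher and 4 lower in YHJ7. None reached 2-fold, where 12.4% of all genes were higher and 9.84% lower by that much. With an equal total all 7 were lower, where the median of all genes was -0.30. Every log2 ratio then falls by 0.33 and RPN4 was at 0.72, so HSF1 and PDR3 differed more than RPN4 did.

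The differences of the subunit genes were also set beside their promoter sequence. The 27 genes with all 9 letters had a median difference of -0.28 and ranged from -0.75 to 0.09. The 8 genes without it, RPN4 left out, had a median of -0.39 and ranged from -0.83 to -0.07, so the groups overlapped over most of their range. With the 8-letter form the medians were -0.31 in 30 genes and -0.27 in 5 genes. The order of the medians thus turned with the form of the sequence searched.

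**Figure D4:**
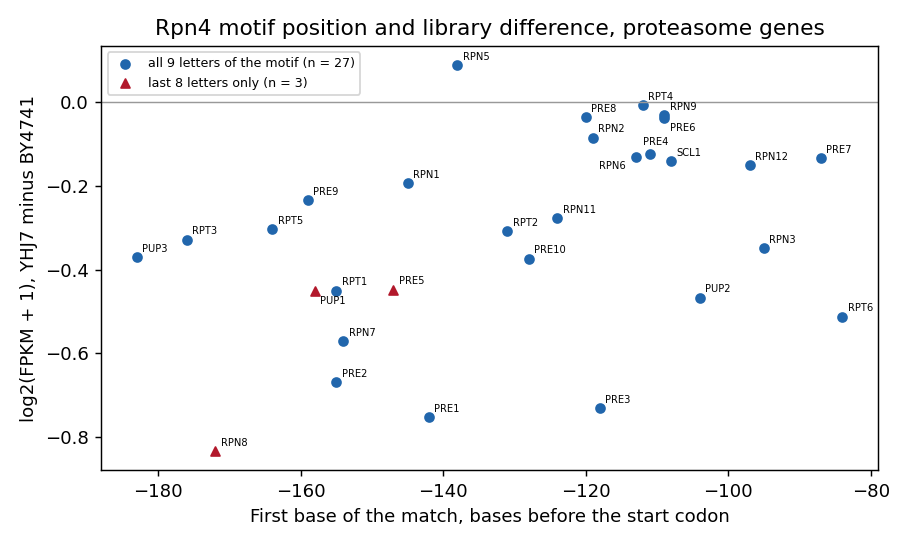
Log2(FPKM + 1) difference, YHJ7 minus BY4741, against the distance of the Rpn4 sequence from the start codon in bases, for the 27 proteasome genes with all 9 letters (circles) and the 3 with the last 8 letters only (triangles). Matches lie between positions -183 and -84, and RPN8, among the triangles, has the lowest difference at -0.83.

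The other genes of the ubiquitin-proteasome system did not all share the direction of the subunits. Chaperones that assemble the proteasome and factors that bind it had a median difference of -0.07, with 5 higher and 8 lower among the 13 of 15 that were found, or -0.39 with an equal total. ADD66, which helps to assemble the alpha ring, was the lowest, with 48.7 FPKM in YHJ7 and 67.4 FPKM in BY4741 (-0.46). CIC1 is described both as a proteasome adaptor and as a factor of the large ribosomal subunit precursor. It was the only gene of this list past 2-fold, with 103 FPKM in YHJ7 and 30.0 FPKM in BY4741 (1.75). Of all genes, 12.4% were at least 2-fold higher and 9.84% lower. SPG5, a proteasome regulator of stationary phase that was picked here after its values were seen, had 1150 FPKM in YHJ7 and 632 FPKM in BY4741 (0.86).

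Cdc48, the ATPase that extracts ubiquitinated proteins, its cofactors and the shuttle factors that bring substrates to the proteasome were mostly lower as well. Their 14 genes had a median of -0.34 (-0.39 in the authors' table of comparisons), with 11 lower and 3 higher, or -0.66 with an equal total. DSK2, a shuttle factor, had 197 FPKM in YHJ7 and 330 FPKM in BY4741 (-0.74). UBX6, a cofactor of Cdc48, had 451 FPKM in YHJ7 and 251 FPKM in BY4741 (0.84), the highest of the list. The 24 ubiquitin ligase genes had a median of -0.19, with 15 lower and 9 higher (-0.50 with an equal total), from SAN1, a ligase for misfolded nuclear proteins, at -0.75 to SSM4, a ligase of the endoplasmic reticulum membrane, at 0.46.

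The 4 ubiquitin genes were all higher in YHJ7, with a median of 0.60. RPS31, RPL40A and RPL40B encode ubiquitin joined to a ribosomal protein, and UBI4 encodes ubiquitin repeats that are induced by stress. RPS31, RPL40A and RPL40B are also counted among the ribosomal protein genes below, so only UBI4 is separate from that list. RPS31 had 4535 FPKM in YHJ7 and 2418 FPKM in BY4741 (0.91), and UBI4 had 1353 FPKM in YHJ7 and 1252 FPKM in BY4741 (0.11). Scaling to an equal total takes UBI4 below 0 and the median of the list to 0.27. The 12 genes of activating and conjugating enzymes had a median of 0.12, or -0.21 with an equal total. CDC34 was the highest, with 244 FPKM in YHJ7 and 183 FPKM in BY4741 (0.41), and UBC13 the lowest, with 195 FPKM in YHJ7 and 323 FPKM in BY4741 (-0.73). The 19 deubiquitinase genes were split, with 10 higher and 9 lower in YHJ7. Their median was 0.042, or -0.28 with an equal total and -0.025 in the authors' table of comparisons. UBP10 was the only 1 past 2-fold, with 83.6 FPKM in YHJ7 and 39.6 FPKM in BY4741 (1.06). Of all genes, 12.4% were at least 2-fold higher and 9.84% lower. An equal total moves every log2 ratio by -0.33, which takes UBP10 under the line. OTU1 was the lowest, with 91.2 FPKM in YHJ7 and 173 FPKM in BY4741 (-0.92).

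The vacuole is the other main site of protein breakdown in yeast. Of 8 vacuolar protease genes and their inhibitors, 6 were higher and 2 lower in YHJ7, with a median of 0.52, or 0.19 with an equal total. PRB1, encoding proteinase B, had 1947 FPKM in YHJ7 and 882 FPKM in BY4741 (1.14), and PBI2, encoding its inhibitor, had 12833 FPKM in YHJ7 and 18374 FPKM in BY4741 (-0.52). The 28 autophagy genes had a median of -0.27, near that of the proteasome genes, but spread from -1.80 (ATG16, from 10 fragments in YHJ7 and 63 in BY4741) to 1.13 (ATG22, encoding a vacuolar membrane protein), and had a median of -0.58 with an equal total. Genes of the ribosome went the other way from the proteasome subunits. All 137 ribosomal protein genes were higher in YHJ7, with a median of 1.02, and so were all 17 ribosome biogenesis genes, with a median of 1.58. With an equal total the medians were 0.69 and 1.28, and 2 of the ribosomal protein genes, RPS16A and RPL41A, at 0.15 and 0.31 before, were below 0.

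**Figure D5:**
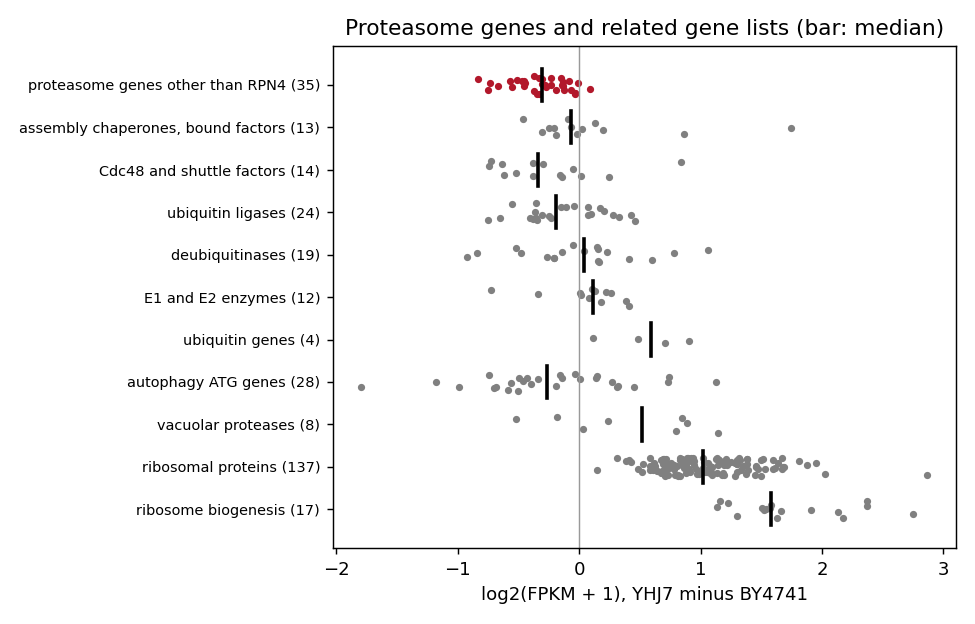
Log2(FPKM + 1) difference, YHJ7 minus BY4741, of the 35 proteasome genes other than RPN4 and of related gene lists, with the number of genes in parentheses. Each point is a gene and each bar a median, which is -0.30 for the proteasome genes, -0.34 for Cdc48 and the shuttle factors and 1.58 for ribosome biogenesis.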

How the data were processed

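Reads were aligned by the authors to S288c (sacCer3) with TopHat 2.0.4, and Cufflinks 2.0.2 gave the values. Per library, the deposited tables hold each gene's estimated count and FPKM. A further deposited table holds the authors' fold changes, p-values and FPKM per strain, and only its FPKM values were used, as an alternative. Samples were assigned by column heading. The row that names no gene (0.309% of the counts in YHJ7 and 0.806% in BY4741) was left out.

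The deposited counts are fragments times a factor for each library. The worth of 1 fragment, 1.25 in YHJ7 and 0.797 in BY4741, was taken as the largest step whose share of whole multiples (tolerance 0.02, deposited counts up to 100) lay within 0.1 of the highest share. It made 56.1% and 55.2% of those values whole, so no count model was fitted. Exact conditional 95% intervals of the ratio of 2 counts used these fragments, and intervals cover counting error only. Differences are log2(FPKM + 1), YHJ7 minus BY4741, which understates changes of low genes, and 2-fold means a difference of at least 1. With 1 library a strain no test was run.

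The 36 genes and the related lists were chosen with earlier results of these data known. Named genes are all 36, the genes past 2-fold with more than 3 fragments in both libraries and the highest and lowest of each ubiquitin-proteasome list, the genes of the RPN4 regulators, vacuole and autophagy shown, and the strain check genes. ADC17, FUB1, ATG42, SIK1 and 6 autophagy genes found no row by these names. Of the 6716 genes, 5986 matched RefSeq R64, in which all 36 have the coordinates of the files. Computations used Python 3.11.15, NumPy 2.4.6, pandas 2.3.3, SciPy 1.17.1 and matplotlib 3.10.9, and the scripts were tested on simulated data.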

Additional observations from a re-analysis of the deposited data

How the results depend on the processing

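No paired analysis was possible because there is 1 library a strain, which also means that none could be left out. With a pseudocount of 10, 0 of the 36 were at least 2-fold higher in YHJ7, where 9.37% of all genes were. At least 2-fold lower were 0 of the 36 and 4.59% of all genes. Under scaling to the same total, the median of the 36 genes was -0.62, that of the alpha ring -0.56, of the beta ring -0.78, of the ATPases -0.65, of the other base subunits -0.54, of the lid -0.60 and of UMP1 and BLM10 -0.63. At least 2-fold, 0 of the 36 were then higher and 3 lower, where 7.55% of all genes were higher and 15.7% lower. At any size 1 of the 36 was then higher, with the median of all genes at -0.30. With the FPKM values of the authors' table of comparisons, 0 of the 36 were at least 2-fold higher, where 11.3% of all genes were. There 4 of the 36 were higher at any size, with the median of all genes at 0. The lid had a median of -0.17 there, and the median of UMP1 and BLM10 turned to 0.059. RPN3, UMP1 and BLM10 share their locus with other genes there. At 1.5-fold, 4 of the 36 were lower, where 19.1% of all genes were, and at 4-fold 0 were higher, where 2.74% were. Genes without the 8-letter Rpn4 sequence had a median of -0.27. Over the 1903 genes whose mean FPKM was at least 100, a comparison added after seeing the data, the median was 0.21. Among single genes, scaling to the same total moved all 36 beyond their counting intervals, the authors' table moved 2 and the pseudocount of 10 moved 1. The pseudocount of 0.1, the centring on the median ratio and the filters on low values left the medians and counts of the 36 genes as they were to within these limits. With the step of the highest share as the worth of 1 fragment (0.626 in YHJ7), the fewest fragments of a gene in YHJ7 were 880, against 440 here, and the widest counting standard error was 0.070.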

Other observations

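The Rpn4 sequence GGTGGCAAA was also in the promoters of 46 genes outside the 36, of which 45 had values. Their median log2(FPKM + 1) difference, YHJ7 minus BY4741, was -0.33, with 31 lower and 14 higher in YHJ7, and 5 were at least 2-fold lower and 0 at least 2-fold higher, where 9.84% and 12.4% of all genes were. For 8 of the 45 the site lies between the gene and a proteasome gene that shares it. The other 37 had a median of -0.34, with 26 lower and 11 higher. The genes named from this set were chosen after their values were seen. CDC48, encoding the ATPase that extracts ubiquitinated proteins, had 391 FPKM in YHJ7 and 508 FPKM in BY4741 (-0.38). UBA1, encoding the ubiquitin activating enzyme, had 169 FPKM in YHJ7 and 214 FPKM in BY4741 (-0.34). PDI1, encoding protein disulfide isomerase, had 352 FPKM in YHJ7 and 471 FPKM in BY4741 (-0.42). SGT2, encoding a cochaperone of tail-anchored proteins, had 363 FPKM in YHJ7 and 521 FPKM in BY4741 (-0.52). CUZ1, whose product binds the proteasome and Cdc48, had 21.8 FPKM in YHJ7 and 73.1 FPKM in BY4741 (-1.70). TMC1, a related zinc finger gene, went the other way, with 868 FPKM in YHJ7 and 486 FPKM in BY4741 (0.84). UBI4 (0.11), ECM29 (0.13) and YAP1 (0.18) are in this set as well and were also higher in YHJ7. With the 8-letter form GTGGCAAA, 128 genes outside the 36 had values, and their median was -0.10, with 74 lower and 54 higher. No cause of these differences was tested.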
